A study of Mus musculus with 4 samples.

Results

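The 6 genes described here encode the enzymes that write and remove DNA methylation: the 5-methylcytosine oxidases Tet1, Tet2 and Tet3, the maintenance methyltransferase Dnmt1 and the de novo methyltransferases Dnmt3a and Dnmt3b. They are 6 of 21887 protein-coding genes, grouped by their function with earlier results of these data known. The interval looked at was each gene span with 10 kb on each side (the locus), and for Tet2 also the span with 300 kb on each side, which was chosen by the presence there of a region open only in the IL-4 libraries. Peaks were found at 4 of the 6 loci. Tet1 and Dnmt3b had none in any library, Dnmt1 and Dnmt3a had at least 1 in each of the 4, and the peak at the start of Tet2 was found only in the untreated libraries. That Tet2 peak ranked low by score, at percentiles 27.5 and 23.3 of the wild-type and Slc6a8-null untreated lists. It was in neither list once all lists were cut to equal length.

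The data are ATAC-seq peak lists, in which the transposase Tn5 marks accessible DNA, from bone marrow-derived macrophages of C57BL/6 background. Wild-type (WT) cells and cells of genotype Slc6a8-/y (KO), which lack the X-linked creatine transporter gene, were grown with 10% M-CSF for 5 days and then left untreated or given IL-4 at 10 ng/mL for 6 hours. The 4 groups were WT untreated, WT IL-4, KO untreated and KO IL-4, with 50000 cells and 1 library each, and the study asks whether a lack of creatine alters accessible chromatin as macrophages polarize. The labels do not say how many mice gave bone marrow. All comparisons are therefore between libraries, with no replicate error and no test.

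DNA methyltransferases add a methyl group to cytosine, mostly at CpG dinucleotides. Dnmt1 copies the pattern to the new strand after replication, and Dnmt3a and Dnmt3b place methyl groups on unmethylated DNA. Tet enzymes oxidise the methyl group in a reaction that uses 2-oxoglutarate, the first step of active demethylation. In blood cells Tet2 and Dnmt3a are the members best known for loss-of-function mutations in clonal haematopoiesis, and macrophages without Tet2 are known for altered cytokine expression.

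In WT the lists held 17339 peaks without and 9930 with IL-4, and in KO 13714 and 10443; read depth is unknown. Scores began at 50.0 in every list and are the authors' own value per peak; they, and the percentile of a score, rank peaks only within a list. Slc6a8 had no locus peak in any library, so it offered no check of the genotype. Of 10 macrophage markers, 10, 8, 8 and 6 had a locus peak in WT untreated, WT IL-4, KO untreated and KO IL-4. Of 4 dendritic cell markers, 3, 2, 3 and 3 had one, of 6 T cell markers 2 in each library, of 5 B cell markers 2, 1, 1 and 1, of 6 neutrophil markers 1 in WT untreated alone, and of 4 fibroblast markers none. For comparison, 56.0, 43.3, 51.6 and 44.1% of all protein-coding genes had a locus peak, in the same order of libraries. The part of other cell types in the results below was not tested, and a smaller share of cells with open DNA cannot be told apart from less accessible DNA in each cell.

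The DNA before the starts of these genes ranged from CpG-poor to among the most CpG-rich of all promoters. Sequences are shown for 3 starts that peaks covered (Dnmt1, Tet2 and Tet3) and for the first start of Dnmt3a, which no peak covered, so that their CpG content can be seen beside the peaks. Each is the 250 bases before a RefSeq start site on GRCm38.p6 (coordinates as in mm10), written 5′ to 3′ on the gene's strand, with every CpG in capitals.
Dnmt1, second start, chr9:20952980-20953229, minus strand: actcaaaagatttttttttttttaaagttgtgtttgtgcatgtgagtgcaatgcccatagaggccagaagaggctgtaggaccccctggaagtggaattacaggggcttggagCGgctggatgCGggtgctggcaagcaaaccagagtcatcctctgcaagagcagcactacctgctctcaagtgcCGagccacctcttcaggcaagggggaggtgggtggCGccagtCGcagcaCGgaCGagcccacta
Tet2, chr3:133544391-133544640, minus strand: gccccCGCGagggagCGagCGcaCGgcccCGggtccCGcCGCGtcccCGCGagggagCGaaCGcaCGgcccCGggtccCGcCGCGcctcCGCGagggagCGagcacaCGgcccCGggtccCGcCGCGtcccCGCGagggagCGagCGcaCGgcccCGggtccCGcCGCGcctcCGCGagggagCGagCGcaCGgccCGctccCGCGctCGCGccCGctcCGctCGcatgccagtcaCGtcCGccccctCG
Tet3, chr6:83441679-83441928, minus strand: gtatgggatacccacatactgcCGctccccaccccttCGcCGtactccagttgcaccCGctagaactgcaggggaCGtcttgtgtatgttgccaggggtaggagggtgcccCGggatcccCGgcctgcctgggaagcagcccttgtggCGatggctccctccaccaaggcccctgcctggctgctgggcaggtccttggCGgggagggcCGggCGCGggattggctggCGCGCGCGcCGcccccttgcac
Dnmt3a, first start, chr12:3806730-3806979, plus strand: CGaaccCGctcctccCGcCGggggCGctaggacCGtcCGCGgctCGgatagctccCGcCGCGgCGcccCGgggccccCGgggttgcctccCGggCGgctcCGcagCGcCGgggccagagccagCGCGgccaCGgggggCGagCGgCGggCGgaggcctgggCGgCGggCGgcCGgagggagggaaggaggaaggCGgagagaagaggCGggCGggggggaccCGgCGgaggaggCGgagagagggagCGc

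The Tet2 sequence held 51 CpGs and 83.6% G+C, at the 99.9th percentile of CpG number among 21263 start windows of protein-coding genes. It is also a tandem repeat: the run of 20 bases cacggccccgggtcccgccg occurred 4 times in it, every 42 bases. A 20-base run occurring at least 4 times was present in 0.588% of the windows. None of the other windows of the 6 genes repeated a run of 20 bases.

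Dnmt3a had 38 and 40 CpGs before its first and its second start (percentiles 97.9 and 98.5) and 15 before its last. Its span begins at position 3801559 of chromosome 12, ahead of the first start with a window, at 3806980. Dnmt3b had 21, Tet3 17 and Tet1 15, against a median of 10 over all windows. The 3 starts of Dnmt1 had 26 (the innermost, at position 20952623 of chromosome 9), 7 (shown above) and 2 (the outermost).

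The starts with the most CpGs were not those with peaks in the most libraries. Peaks of all 4 libraries covered the inner starts of Dnmt1, with 26 and 7 CpGs, whereas the first 2 starts of Dnmt3a had a peak in none. Over all genes, 38.2% of start windows with 30 or more CpGs had no peak in any library. For windows with 10 to 19 CpGs the share without a peak was 37.7%, for 20 to 29 CpGs 28.5%, and for 0 to 4 CpGs 94.4%.

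**Figure D1:**
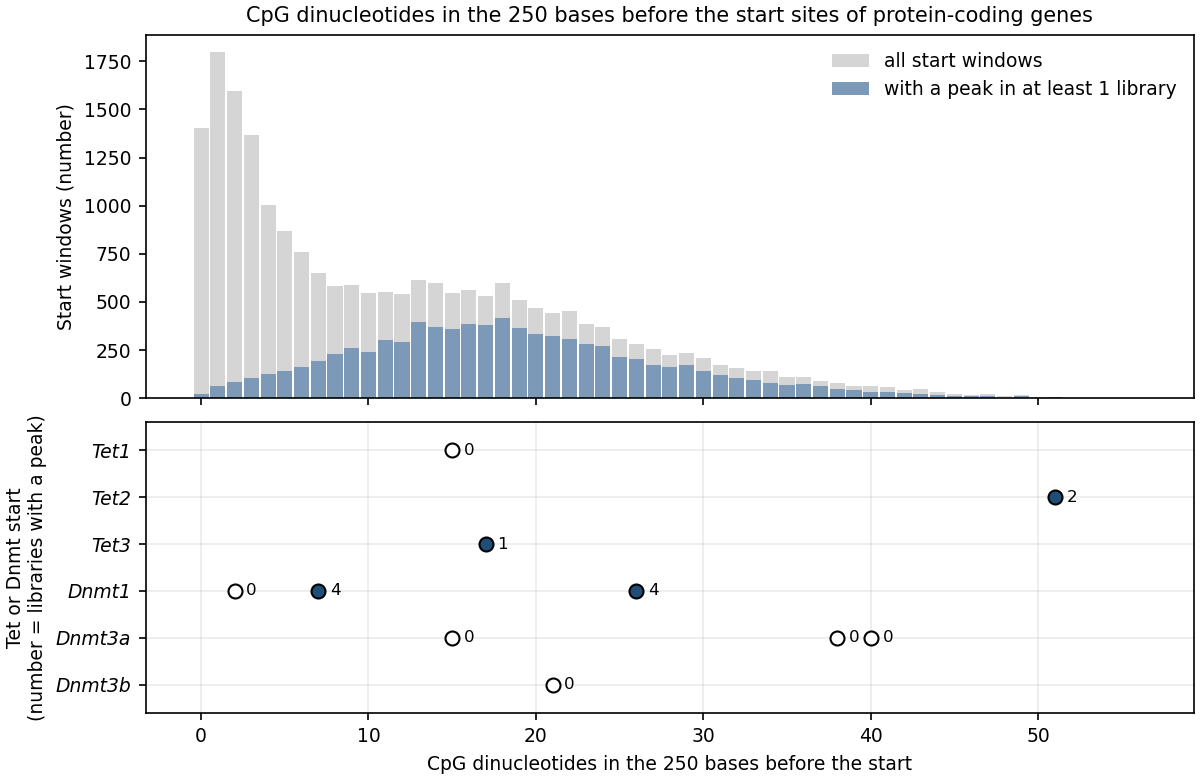
The upper panel plots the number of start windows of protein-coding genes (y axis) against the CpG dinucleotides in the 250 bases before the start (x axis), with windows that had a peak in at least 1 library in blue. The lower panel marks each Tet and Dnmt start, filled where a peak covered it and with the number of libraries: Tet2 stands at 51 CpGs with 2 libraries, and the open circles of Dnmt3a at 38 and 40 had none.

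Dnmt1, which maintains methylation at replication, had the highest-scoring peak at a start site among the 6 genes. That region (chr9:20952436-20953240) covers both inner starts of Dnmt1, inside the gene span, and scored 258 in WT untreated, 126 with IL-4, 214 in KO untreated and 125 with IL-4. These are percentiles 88.5, 74.3, 86.8 and 72.5 of the 4 lists, so the peak stood in the upper part of each. A second region, inside the gene and 8.8 kb downstream of the innermost start (chr9:20943228-20943871), also had a peak in every library. Its WT scores were 108 untreated and 52.2 with IL-4 and its KO scores 101 and 74.1, which puts the WT IL-4 peak at percentile 5.0, close to the lowest score listed. Another region, 1.6 kb upstream of the outermost start (chr9:20961509-20961862), was found in WT untreated alone with a score of 80.8. The outermost start itself, which has 2 CpGs before it, had no peak in any library. The nearest region outside the locus, 13.8 kb from Dnmt1, scored 52.4 in WT IL-4 alone.

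Dnmt3a, a de novo methyltransferase, was marked inside its gene body and not at its starts. The region 48.6 kb downstream of the second start (chr12:3855753-3856623) had a peak in every library, scoring 189 in WT without and 192 with IL-4, and 118 in KO without and 110 with it. Within their lists these peaks stood at percentiles 79.5, 90.2, 62.6 and 65.8, above the median of each. The region lies within the gene span, upstream of the last start (position 3891744) and nearer to it than to the second. Its place in an exon or an intron was not looked up.

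A neighbouring Dnmt3a region, 54.9 kb downstream of the second start (chr12:3862017-3862695), covers the start of the antisense transcript Dnmt3aos, a long noncoding RNA. This region too lies upstream of the last Dnmt3a start and nearer to it than to the second. It scored 125 in WT untreated, 108 in WT IL-4 and 79.5 in KO untreated, and KO IL-4 alone had no peak there, also when each list was limited to its top 9930 peaks by score. At a score of 100 or more KO untreated had none either, and both WT libraries had one. The 250 bases before the start of Dnmt3aos are shown because they hold the AP-1 site TGANTCA, in capitals below, and only 2 CpGs.
Dnmt3aos, chr12:3862245-3862494, minus strand: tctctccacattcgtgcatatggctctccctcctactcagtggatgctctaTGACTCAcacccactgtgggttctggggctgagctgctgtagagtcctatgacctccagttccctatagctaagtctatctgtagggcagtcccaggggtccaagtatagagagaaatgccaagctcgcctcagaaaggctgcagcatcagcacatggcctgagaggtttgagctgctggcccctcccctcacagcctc

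The letters of 5 motifs were searched on both strands in the windows of the 6 genes and of Dnmt3aos. The search was set for the 6 genes beforehand, and the Dnmt3aos window was added. The AP-1 match was in the Dnmt3aos window alone, against 6.13% of the 21263 start windows of protein-coding genes. Dnmt3aos, a noncoding gene, is not among those windows. The PU.1 core GAGGAA was before the outermost start of Dnmt1 (3 matches), the first and the second start of Dnmt3a, whose windows overlap (1 each), and the start of Dnmt3b (1), against 22.2%. The GC box GGGCGG was before the starts of Tet1, Tet2, Tet3 and Dnmt3b, all 3 of Dnmt3a and the innermost of Dnmt1, against 42.6%. The C/EBP half-palindrome TTGCNNAA (9.09% of windows of protein-coding genes) and the STAT6-type palindrome TTCNNNNGAA (5.39%) were in none of the windows searched here. A match is a description of the letters and not a bound site, and no match says only that the letters are not in these 250 bases.

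Dnmt3a had a further region 14.9 kb upstream of its first start (chr12:3791756-3792101), with scores of 73.2 in WT untreated and 51.4 in WT IL-4 and no peak in either KO library. It is nearer to Dtnb, at 6270 bp, than to Dnmt3a. At 9458 bp from the Dnmt3a span it is also the member region just inside the 10 kb limit. Just outside it, a region 19.7 kb away and overlapping the span of Dtnb scored 106 in WT untreated alone.

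Dnmt3b, the other de novo enzyme, had no locus peak. The nearest region was 16.4 kb away, overlapping the span of Commd7, with scores of 50.1 in WT untreated and 50.9 in KO untreated, at the floor of both lists.

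Tet1 had no locus peak either. Just outside the limit, 11.9 kb from its 3′ end, a region overlapping the span of Ccar1 scored 326 in WT untreated, 120 in WT IL-4 and 208 in KO untreated. KO IL-4 had no peak there. Over all protein-coding genes, 40.4% had no locus peak in any library. Among genes no more than 1.5 times longer or shorter than Tet1 it was 26.2%, and for the length of Dnmt3b 28.4%.

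Tet3 had the most regions of the 6 genes, and 3 of its 4 were found in WT untreated alone, the library with the longest list. Over the genome, 3916 of 20540 merged regions were found in that library alone. The shared Tet3 region, 59.4 kb downstream of the start (chr6:83381672-83382259), scored 88.5 in WT untreated, 67.8 in WT IL-4 and 57.5 in KO untreated, with no peak in KO IL-4. The start of Tet3 (region chr6:83441560-83441943, which also covers a start of the noncoding transcript B230319C09Rik) scored 68.4. The regions 28.2 kb downstream and 9.0 kb upstream of it scored 68.0 and 53.6. None of these peaks passed percentile 42.0 of its list, and all lay within the gene span. The only Tet3 start with a window, at position 83441678, is inside the span. The 5′ end of the span, at position 83457208, had no window. Outside the limit the nearest region, 12.7 kb from Tet3, scored 55.9 in WT untreated and 52.2 in KO IL-4.

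Tet2 had a single locus region, at its start (chr3:133544043-133544699), over the repeated CpG-rich sequence shown above. Its score was 71.0 in WT untreated and 64.4 in KO untreated, percentiles 27.5 and 23.3, and neither IL-4 library had a peak. Having locus peaks in both untreated libraries and neither IL-4 library was a pattern shared by 943 protein-coding genes, 4.31% of all. That total includes the 40.4% of genes with no locus peak in any library. Among genes of like length to Tet2, matched as for Tet1, the share with the pattern was 5.73%. By region, 2145 of 20540 merged regions were found in both untreated libraries and neither IL-4 library. Over the 11 locus regions of the 6 genes, 4 were found in 1 library, 2 in 2, 2 in 3 and 3 in all 4. Of all 20540 merged regions, 32.8% were found in 1 library and 32.5% in all 4.

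**Figure D2:**
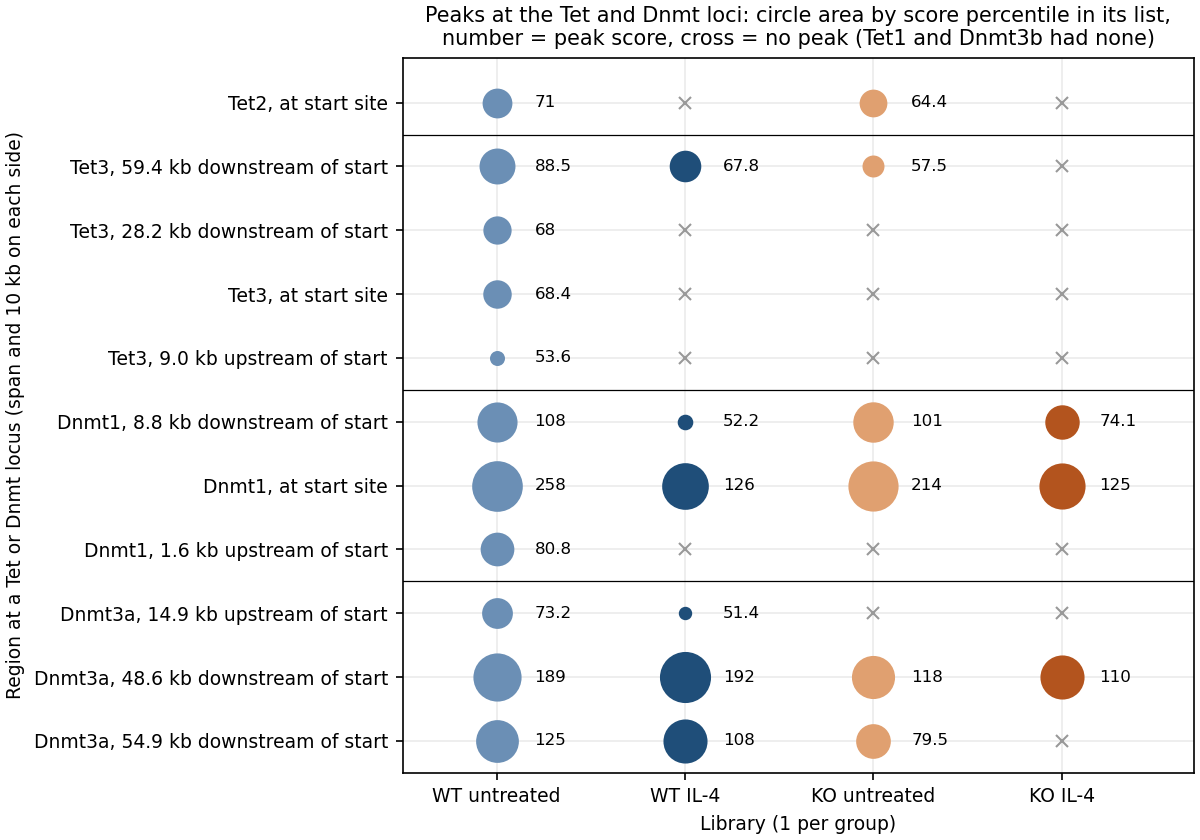
Each row is a region at the Tet2, Tet3, Dnmt1 or Dnmt3a locus, named by its distance from a start site, and each column is a library. Circle area grows with the percentile of the peak's score in its list, the number is the score, and a cross means no peak. The Dnmt1 start and the Dnmt3a gene-body region had a circle in all 4 columns, and the Tet2 start only in the untreated ones.

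The wide Tet2 interval of 681.5 kb held 7 regions, and Tet2 was the nearest protein-coding gene to 6 of them. The region open only after IL-4 (chr3:133758273-133759007) lay 213.9 kb upstream of the Tet2 start. It scored 147 in WT IL-4 and 125 in KO IL-4, percentiles 81.2 and 72.7, with no peak in either untreated library. Because this region set the width of the interval, its pattern is a description. The next protein-coding gene on its far side was Cxxc4, which encodes a CXXC-domain regulator of Tet2, 477137 bp away and without a locus peak in any library.

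A second region of the same pattern was nearer to Tet2, 78.6 kb upstream of the start (chr3:133623019-133623885). Its peak scored 77.5 in WT IL-4, where it was 867 bp wide, and 51.9 in KO IL-4, where it was 253 bp wide and at percentile 4.1. In both genotypes it was absent from the untreated list. Over the genome, 127 of 20540 merged regions were open in exactly these 2 libraries. The 2 near Tet2 were 134.4 kb apart, and 6 of the 127, these 2 included, had another within that distance. Since the farther of the 2 set the interval, their spacing is a description too.

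Beside it, 2487 bp farther upstream, a region 82.0 kb from the start (chr3:133626373-133627085) had a different pattern. It scored 131 in WT untreated, and in KO 97.0 without and 64.9 with IL-4, and only WT IL-4 lacked a peak. A region 38.4 kb upstream of the start (chr3:133582816-133583442) did the same, scoring 163 in WT untreated, and in KO 71.5 without and 92.8 with IL-4. Absence from WT IL-4 alone was the pattern of 1487 merged regions. Both regions had that pattern at equal list lengths too, but at a score of 100 or more each was left in WT untreated alone.

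The 2 other regions of the interval had further patterns. The one 115.5 kb upstream (chr3:133659885-133660322, inside the noncoding gene Gm40153) was found in WT untreated alone with a score of 96.6. The start of Ppa2, a mitochondrial pyrophosphatase gene on the other side of Tet2, had peaks in all 4 libraries, with highest scores of 114, 50.5, 146 and 60.4 in WT untreated, WT IL-4, KO untreated and KO IL-4. At a score of 100 or more only the untreated libraries had a peak at the Ppa2 start. Just outside the interval, a region overlapping the span of Ints12, at 368.9 kb from the Tet2 span, scored 53.7 in KO untreated.

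**Figure D3:**
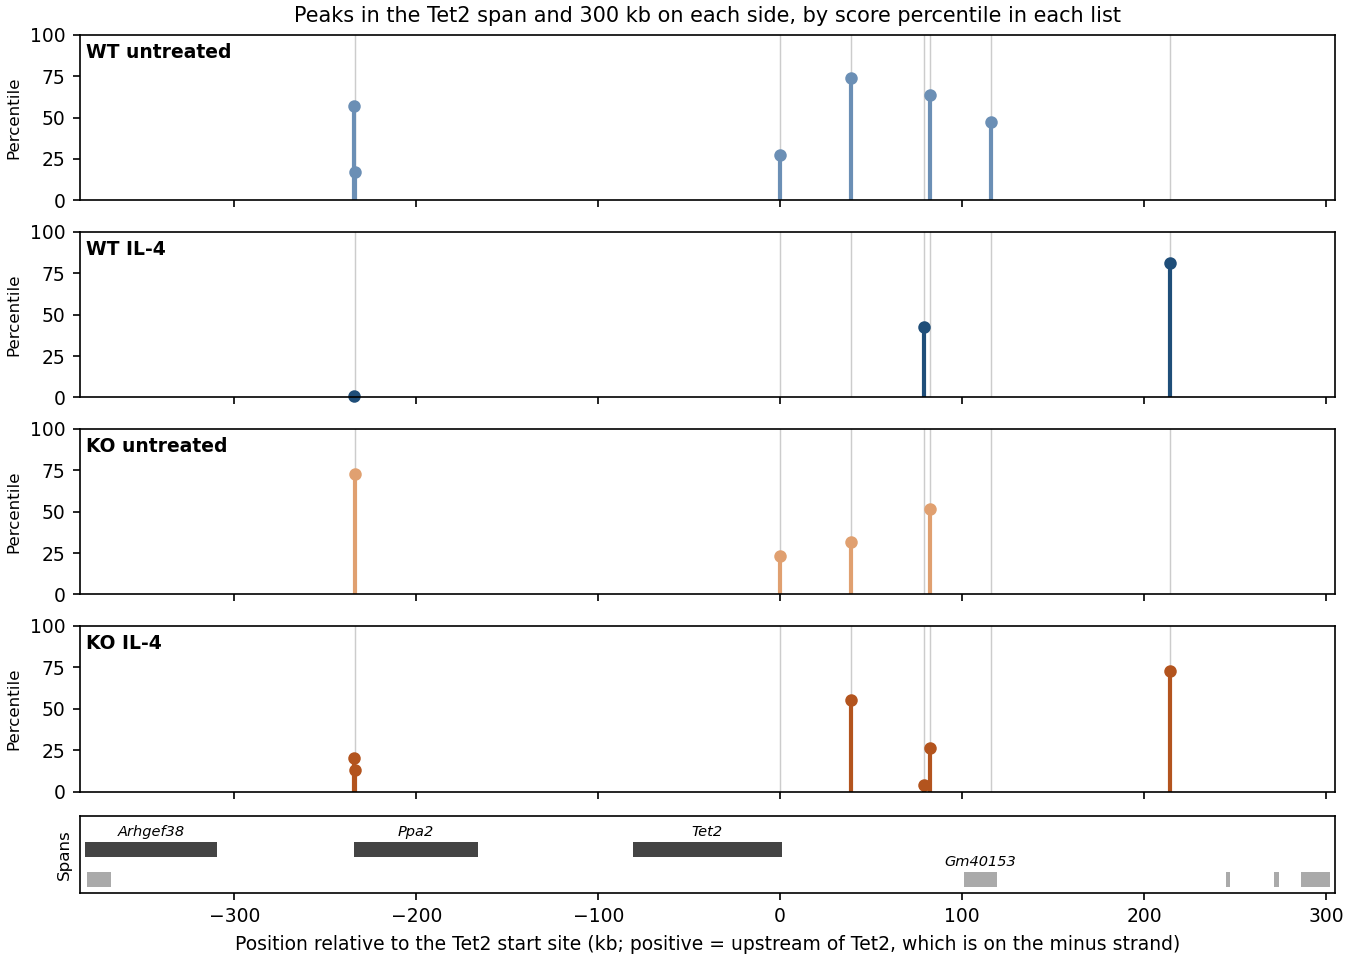
Each of the upper 4 panels is a library, with the percentile of each peak's score in its list (y axis, 0 to 100) against the distance from the Tet2 start in kb (x axis, positive values upstream). The lowest panel shows the spans of protein-coding genes in dark grey and noncoding ones in light grey. The peak at 213.9 kb appears in both IL-4 panels and in neither untreated panel, and the peak at 0 the other way round.

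With IL-4 in WT, the 6 loci went from 11 peaks to 6. A peak of the first list without an overlapping peak in the second is counted as lost, and the reverse as gained. By that count 5 of the 11 were lost, 45.5% (16.7 to 76.6, exact Clopper-Pearson 95% interval for counting error only): the Tet2 start, 3 at Tet3 and the one upstream of Dnmt1. Over all WT untreated peaks 47.7% were lost, so the share at these genes was near the background. None of the 6 WT IL-4 peaks was gained, against 10.3% of all WT IL-4 peaks. Of the 4 genes with a locus peak only Tet2 lost all, against 24.6% of all genes with one.

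In KO, IL-4 took the count from 6 peaks to 3. Lost were the Tet2 start, the Tet3 region and the Dnmt3aos start, 3 of 6 (50.0%, 11.8 to 88.2), against 37.7% of all KO untreated peaks. None of the 3 KO IL-4 peaks was gained, against 18.1% of all. Tet2 and Tet3 lost all locus peaks, 2 of 4 genes, against 19.6% of genes. The loss at the Tet2 start was the only loss that both genotypes had in common.

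Between untreated libraries, KO had 6 peaks where WT had 11. The 5 that KO lacked were 3 at Tet3, the one upstream of Dnmt1 and the one upstream of Dnmt3a (45.5%, 16.7 to 76.6), against 32.1% of all WT untreated peaks. KO untreated gained none of its 6, against 15.4% of all its peaks. All 4 genes kept at least 1 locus peak, while 12.2% of genes lost all.

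After IL-4, KO had 3 peaks where WT had 6. The 3 that KO lacked (50.0%, 11.8 to 88.2) were the Tet3 region, the Dnmt3aos start and the region upstream of Dnmt3a, against 26.1% of all WT IL-4 peaks. None of the 3 KO IL-4 peaks was gained, against 29.5% of all. Tet3 lost all locus peaks, 1 of 3 genes, against 13.5% of genes. The 4 comparisons share libraries and are not independent of each other.

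The peaks lost at these genes were mostly those with low scores, less so between KO and WT after IL-4. In WT, IL-4 left both peaks of the highest score quartile and both of the third quartile in place, and the 5 lost ones were all 3 of the lowest quartile and 2 of 4 in the second. Over all WT untreated peaks 81.8% of the lowest quartile and 4.64% of the highest were lost. Over the 4 comparisons, the Dnmt3aos start in WT IL-4 (score 108, in the third quartile) was the one peak above the median of its list without an overlapping peak in the other. In its quartile, 14.9% of all WT IL-4 peaks had none in KO IL-4. From the lowest quartile up, KO IL-4 lacked 1 of 2, 1 of 1, 1 of 2 and 0 of 1 of the WT IL-4 peaks at these genes. The shares over all WT IL-4 peaks were 55.4, 32.9, 14.9 and 1.33%.

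**Figure D4:**
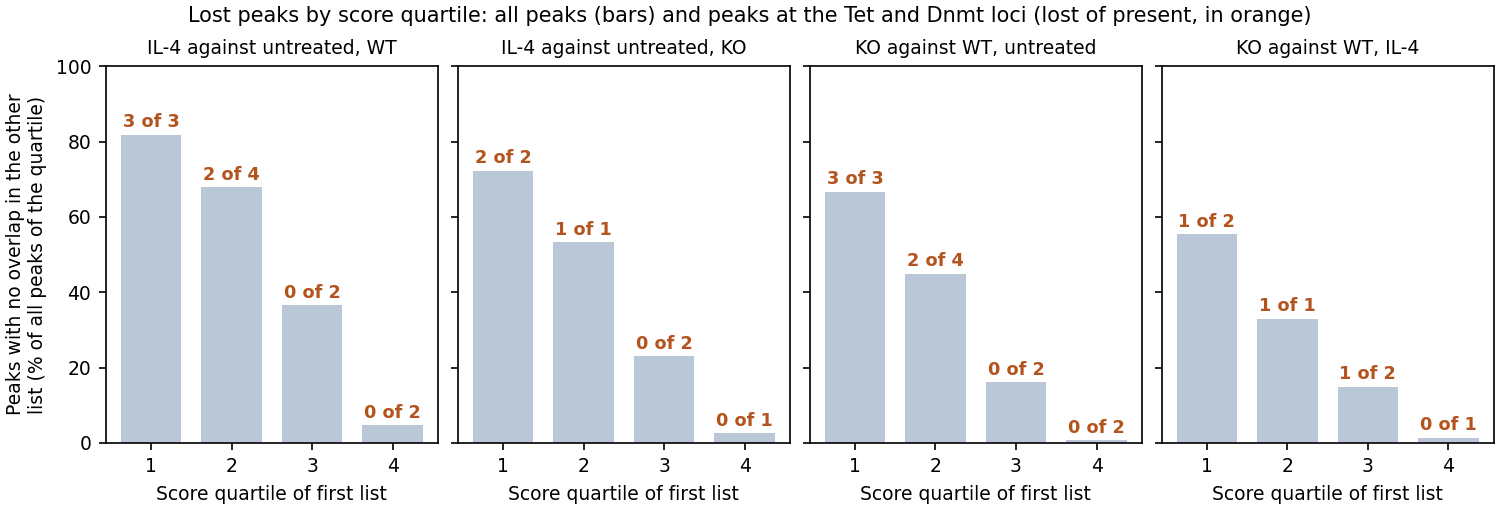
Bars give the percent of all peaks of the first list, by score quartile (1 lowest, 4 highest), that had no overlapping peak in the other list, for the 4 comparisons. Orange numbers give the lost and present peaks at the Tet and Dnmt loci. Losses at these loci sit in the lower 2 quartiles except for 1 of 2 in the third quartile of WT IL-4.

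At equal list lengths the differences at the Tet2 start and at Tet3 that involved an untreated library did not appear in the same form. Between KO and WT after IL-4 the same 3 peaks were lost, that at Tet3 included. With each list limited to its top 9930 peaks by score, peaks below 89.57 in WT untreated and below 67.78 in KO untreated leave the lists, and with them the Tet2 start peak and every untreated Tet3 peak. IL-4 then lost none of the 4 remaining WT untreated peaks and gained 2, at Tet3 and upstream of Dnmt3a, and both overlapped a peak of the full WT untreated list. The shares lost and gained over all peaks were not computed at equal lengths, so these counts have no background beside them. The pattern of the region 213.9 kb upstream of Tet2 was the same at equal lengths and at a score of 100 or more. That at 78.6 kb was not: the KO IL-4 peak left the list at equal lengths and both peaks did at 100 or more.

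Also looked at were 43 other genes tied to DNA methylation. Beside its upkeep and removal, they include readers of methylated DNA, CpG island binders, methyl donor enzymes and the tRNA methyltransferase gene Trdmt1. Of the 43 genes, 28 had a locus peak in all 4 libraries (65.1%, against 36.3% of all protein-coding genes) and 3, Nthl1, Cxxc4 and Cxxc5, in none. Their loci held 68 and 38 peaks in WT without and with IL-4, and 57 and 49 in KO. At equal list lengths they held 45 and 38 in WT and 45 and 48 in KO, so the order within KO turned. Partners of Dnmt1 were among those open in all 4: Uhrf1, which brings Dnmt1 to hemimethylated DNA, had highest scores of 388, 244, 353 and 266, and the replication clamp gene Pcna had 485, 228, 379 and 251, in the same order of libraries. Of the other maintenance partners listed, Uhrf2 had 279, 128, 224 and 166, and Hells had lower scores, 163, 57.8, 55.5 and 79.9. Tdg, the glycosylase that removes oxidised methylcytosine, had 279, 103, 250 and 185. Idh1, whose enzyme makes 2-oxoglutarate, had 326, 122, 232 and 149.

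Some of these genes had a locus peak in one library of a comparison and not the other. With IL-4 in WT 9 of 38 genes lost all locus peaks, against 24.6% of all genes with one, a share near the background. The highest-scoring were Smug1 (104), Dppa3 (91.3), Zbtb4 (90.9), Zbtb33 (74.6), Idh2 (74.4) and Kdm2b (70.6). None of the 29 with a peak in WT IL-4 lacked one in WT untreated, against 2.57% of all genes. In KO 3 of 35 lost all with IL-4 (19.6% of all genes did), Trdmt1 (76.1), Ogt (53.7) and Zbtb38 (51.4), and 1 of 33, Kdm2b (61.9), gained its first (6.0% of all genes). Between untreated libraries 5 of 38 had a peak in WT alone (12.2% of all genes): Zbtb33 (74.6), Gadd45g (72.6), Kdm2b (70.6), Zfp57 (69.7) and Dnmt3l (53.3). Ogt and Zbtb38, 2 of 35, had one in KO alone (4.69% of all genes). After IL-4, 5 of 33 had one in KO alone (15.1% of all genes): Idh2 (91.0), Kdm2b (61.9), Zbtb4 (61.0), Dppa3 (53.8) and Smug1 (53.0). Gadd45g (53.9), 1 of 29, had one in WT alone (13.5% of all genes). Of these peaks, only that of Smug1 in WT untreated had a score above 100.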

How the data were processed

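The 4 deposited peak lists, 1 per library, hold peak positions and 1 score per peak. Per the submitters' processing notes the tools were MACS 1.4.2, Bowtie2 2.2.5 and HOMER, on mm10, with no parameters or order given. The score is the authors' value as deposited; it has no stated unit and ranks peaks within a list. Total reads per library are not known, so peak absence may reflect depth.

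Genes and start sites came from RefSeq on GRCm38.p6; all 6 members had a start window (250 bases before and 50 after a start). A peak covered a start if it overlapped that window by at least 1 bp, and lists were compared by the same overlap. Percentile is the mean rank of a score in its list. Overlapping peaks of the 4 lists were merged into regions. The members and lists were chosen with earlier results of these data known. Named are all members, the gene nearest to each peak of the wide Tet2 interval, and up to 6 listed genes per direction whose locus peaks were in one library of a comparison. Also named, outside that rule, are listed genes with a peak in no library, and Uhrf1, Uhrf2, Hells, Pcna, Tdg and Idh1 of those with peaks in all 4. The list of 43 genes came from 44 entries, 1 a repeat. The comparison by gene length was added after the values were seen.

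The software was Matplotlib 3.10.9, pandas 2.3.3, NumPy 2.4.6 and SciPy 1.17.1 under Python 3.11.15. In lists simulated from the 17339 WT untreated peaks, the overlap code found 996 of 1000 planted losses and 300 of 300 planted gains.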

Additional observations from a re-analysis of the deposited data

How the results depend on the processing

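The order of the libraries by peaks at the 6 loci depended on the score range kept. Of 92 values under alternatives, 56 were within 1.5 times the reported one and 36 were not. None moved beyond that with reciprocal overlap of 50%, peaks within 500 bp counted as shared, loci extended by 5 kb or a Tet2 interval extended by 500 kb. At a score of 100 or more the loci held 4, 3 and 3 peaks in WT untreated, WT IL-4 and KO untreated, 1 was lost in each comparison, the 43 genes held 42, 22, 34 and 24 peaks (KO IL-4 last), and the wide Tet2 interval 3, 1, 1 and 1. At equal list lengths WT untreated held 4 peaks at the 6 loci, and the 43 genes held 45, 38, 45 and 48, which turns the order of the KO libraries. Then 0 were lost and 2 gained with IL-4 in WT, 1 was lost in KO, and 0 were lost in KO untreated against WT. Loci extended by 50 kb held 26, 15, 17 and 12 peaks, and the 43 genes 143, 84, 115 and 95. Of the peaks at the 6 extended loci, 13 were lost and 2 gained with IL-4 in WT, and 6 and 1 in KO. Between genotypes 9 were lost in KO against WT untreated, and 6 lost and 3 gained after IL-4. Longer loci leave the lists as they are, so the shares over all peaks given above apply. At a score of 100 or more and at equal list lengths those shares were not computed. Fewer peaks in the lists, or longer loci, change these counts by construction. No library could be left out, since each group had 1, and unknown depth limits every statement of absence.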
